A study of Mus musculus with 20 samples.

Results

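Uterine RNA taken 2 h after an injection of estradiol was compared with RNA of vehicle-treated uteri, on 3 one-colour arrays a group with 1 uterus an array. Both groups were adult ovariectomized C57bl6/J mice of 10 weeks or more that had rested for 10 to 14 days, which removes the ovaries as a source of estrogen. The estradiol (E2) mice had received 250 ng of E2 subcutaneously in 100 µl of sesame oil and were killed at 2 h, and the vehicle mice had received the oil alone and carry a 24 h label. Time after injection and hormone therefore cannot be told apart in this contrast. The rest of the 20 arrays held uteri at 24 h of E2 (n = 2) and at 2 or 24 h of 750000 ng of bisphenol A (BPA) or of HPTE, a metabolite of the pesticide methoxychlor (n = 3 each). Of 41174 probes 31259 were tested, those detected above background on all arrays of vehicle, of E2 or of both, and they stood for 20727 of 27670 gene symbols. Levels are given as log2 intensity after centring each array on its 75th percentile, and differences as E2 2 h minus vehicle in log2 units with the standard error (SE) of limma's fit. A probe was called when its Benjamini-Hochberg adjusted p over all probes tested was under 0.05.

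E2 acts in the uterus through estrogen receptor α (ESR1), a nuclear receptor that binds DNA directly or is tethered to other factors and also reaches kinase pathways. The uterine response is classically described as biphasic. Immediate early genes, vascular permeability and water uptake change in the first hours, and DNA synthesis and mitosis of the epithelium follow about a day later. The ovariectomized uterus starts from a resting state and is the standard test tissue for such a response. Whole uteri were used, so that fewer cells of a type and less RNA per cell cannot be told apart.

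The response at 2 h was wide. Of the probes tested, 9103 were called (29.1%), 3612 of them higher (11.6%) and 5491 lower (17.6%), and counted with 1 probe per gene symbol the shares were 29.9%, 11.0% and 18.9%. At least a 2-fold difference was fitted for 786 called probes that were higher and 1791 that were lower, and at least an 8-fold difference for 99 and 571. All 3 E2 arrays lay above all 3 vehicle arrays for 16.6% of probes and below them for 25.6%. The balance of directions moved with the scaling. Of called probes 39.7% were higher as reported here, 50.7% after quantile scaling, 46.4% after normexp and quantile, 26.1% with scaling to spike-in probes and 12.6% with no scaling, where the median difference of all tested probes was -0.29.

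Among the largest decreases were transcripts of male germ cells. Of 29 tested genes on a list of sperm and testis markers, 28 were called lower and 0 higher, beside 18.9% and 11.0% of all genes. The median difference was -4.45. Odf1, Akap3, Spata3, Spata18, Pgk2, Tssk2, Crisp2 and Acrv1 were well above background on none of the E2 arrays, and Akap4, Gapdhs and Smcp on 2. These genes were tested only because the vehicle arrays were high, which favours a lower call. Prm1, the protamine that packs sperm DNA, read 16.45, 14.79 and 14.69 on the vehicle arrays and 8.44, 9.58 and 10.20 on the E2 arrays (log2 difference -5.90 ± 0.55, SE, adjusted p = 2.18e-06). Tnp1, a transition protein that precedes the protamines, read 14.69, 13.17 and 13.08 against 7.41, 7.98 and 8.79. In both genes the vehicle arrays were high and vehicle 1 was highest, and the groups did not overlap. The median level of the list was 8.73 to 10.23 on the vehicle arrays, 4.66 to 5.04 at 2 h of E2, 4.70 and 4.88 at 24 h of E2, 6.71 to 7.51 at 2 h of BPA and 5.63 to 6.40 at 2 h of HPTE. The largest decreases outside that list were those of Spata4 (-6.11 ± 0.53), Cypt3 (-6.03 ± 0.58), Plaat5 (-6.03 ± 0.57) and Hils1 (-5.96 ± 0.53), and Gk2, whose E2 arrays were not well above background, was at least 40.0-fold lower. The part that testis or sperm RNA played in the lower calls was not tested.

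The step between vehicle 1 and the mean of vehicle 2 and 3 went with the size of the decrease. Vehicle 1 was higher by over 0.5 for 97.9% of the 571 called probes that were at least 8-fold lower, for 45.7% of the 1220 that were 2-fold to 8-fold lower, for 5.35% of the 3700 with a smaller decrease and for 7.13% of all tested probes. Of the 99 called probes that were at least 8-fold higher 17.2% had this step, and 36.4% had E2 arrays that spanned over 2, as 469 of all 31259 tested probes had. Markers of the exocrine pancreas varied within the E2 group instead. Ctrc, a pancreatic protease, read 5.62, 19.24 and 15.94 on the E2 arrays against 5.27, 4.60 and 4.64 on the vehicle arrays. Of 14 tested pancreas genes 13 were called higher, beside 11.0% of all genes. The median over the 23 genes of the list on the array, with 9 that were not tested among them, was 4.83 on E2 array 1, 18.60 on array 2 and 13.94 on array 3, 8.68 and 10.00 at 24 h of E2 and at most 5.01 on every other array. With vehicle 1 and E2 array 2 left out together, 0 pancreas genes and 27 sperm genes stayed called. Of 6 tested liver markers Alb and Fgb were also called lower, beside 18.9% of all genes, and neither was without vehicle 1. Alb went from 10.46, 8.84 and 6.10 to 2.79, 4.86 and 2.97. The other tested liver markers, Cyp2e1 (-1.46), Ambp (-0.66), Ahsg (-0.65) and Tat (0.19), did not pass. Of 9 tested skeletal muscle markers 5 were called lower, beside 18.9% of all genes, and 1 was without vehicle 1 and E2 array 2. The 5 were Myl1 (-1.71, with 9.92, 8.90 and 7.41 on the vehicle arrays) and Actn3, Tnnt3, Mb and Mylpf (-0.65 to -0.52). The part of pancreas, liver or muscle RNA in the calls was not tested.

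**Figure D1:**
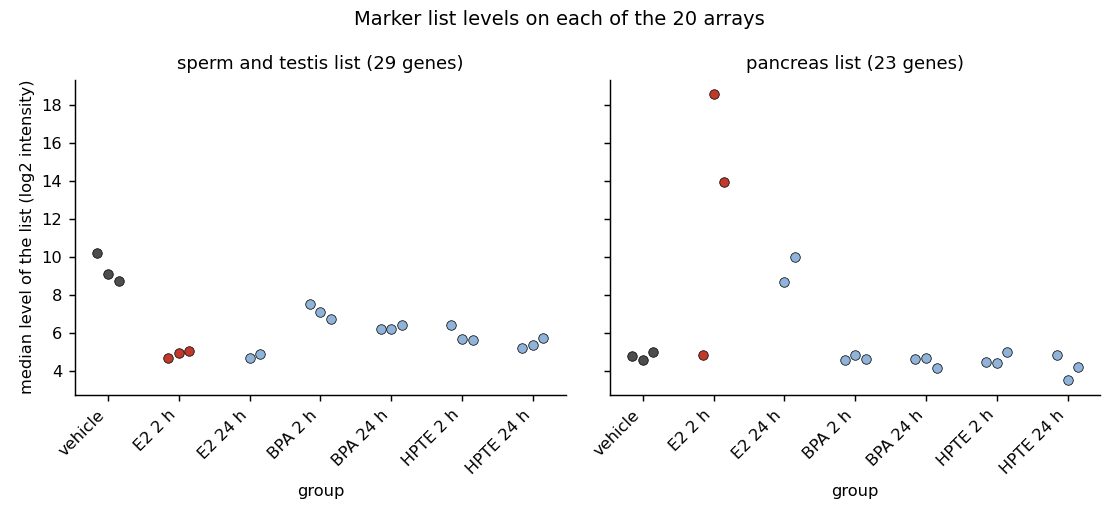
Median level (log2 intensity) of the sperm and testis list (left, 29 genes) and of the pancreas list (right, 23 genes) on each of the 20 arrays, 1 point per array, by group. The vehicle arrays stand highest for the sperm list, at 8.73 to 10.23, and E2 2 h arrays 2 and 3 stand highest for the pancreas list, at 18.60 and 13.94, with E2 array 1 at 4.83.

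**Figure D2:**
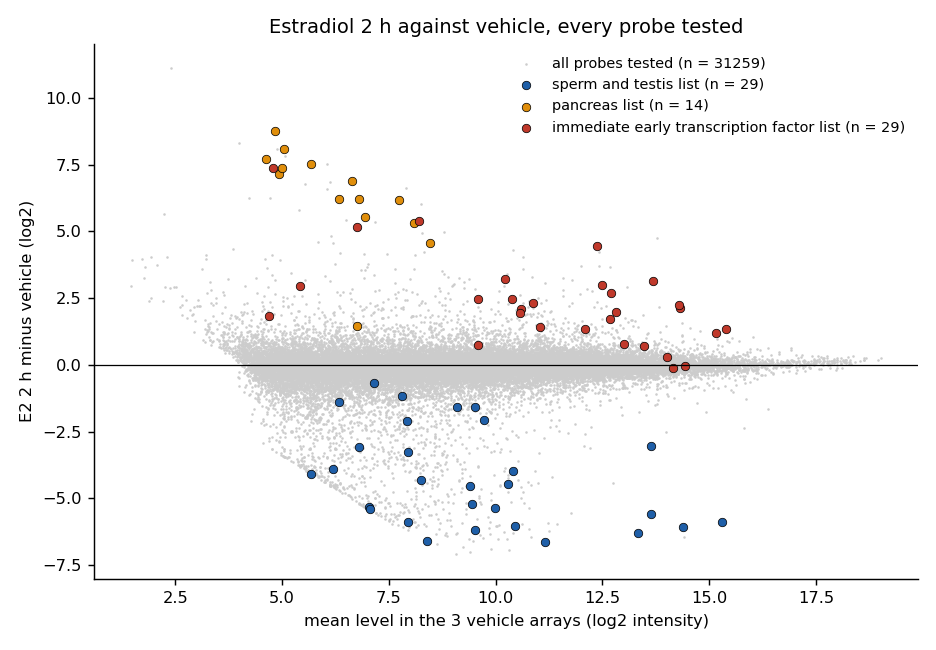
Difference E2 2 h minus vehicle (log2) against the mean vehicle level (log2 intensity) for each of the 31259 tested probes, with the tested members of 3 gene lists marked. The sperm list lies below 0 for 29 of 29 genes and the pancreas list above 0 for 14 of 14, and 27 of 29 genes of the immediate early list lie above it.

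To leave such probes out, the calls were made again on the 26993 probes whose vehicle 1 level lay within 0.5 of the mean of the other vehicle arrays and whose E2 arrays spanned at most 2. Of these 7605 were called, 3415 higher and 4190 lower. This choice was made after the values were seen, and these are called even probes below.

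Markers of the uterus were all present. Each of 12 stromal, 12 myometrial and 16 epithelial markers was detected well above background on all 6 arrays, and 4, 3 and 6 of them were called, counts to be read against the 29.9% called over all genes. Among epithelial genes Elf3, an epithelial transcription factor, rose (1.67 ± 0.14), as did the tight junction claudins Cldn3 (0.61 ± 0.19) and Cldn7 (0.57 ± 0.13) and the keratins Krt7 and Krt19, while Foxa2, a gland factor, fell (-0.88 ± 0.28). Among stromal genes Twist2 rose (2.12 ± 0.21) and Hand2, Hoxa10 and Nr2f2 fell by under 1 on the brightest probe of each. The smooth muscle genes Mylk, Lmod1 and Synm fell by 0.37 to 0.52. Without vehicle 1 and E2 array 2, 0 of these muscle genes and 1 of the 3 stromal decreases remained called. Of 10 macrophage and granulocyte genes only Mpo was called (-1.30 ± 0.43). The calls of Cldn3, Foxa2, Hoxa10, Lmod1, Synm and Mpo were lost without vehicle 1, and that of Mylk without vehicle 2 or 3 or E2 array 1 or 2.

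Immediate early transcription factors were mostly higher. These genes are transcribed within minutes of a signal without new protein synthesis and encode AP-1, EGR and NR4A factors. Of 29 tested members 25 were called higher and 0 lower, 86.2% against 11.0% over all genes, with a median difference of 2.09, and with even probes alone 22 of 25 were higher. Nr4a3 was not tested.

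Egr4 read 5.38, 4.45 and 4.55 on the vehicle arrays and 11.89, 12.12 and 12.45 on the E2 arrays, a 164-fold increase (log2 difference 7.36 ± 0.24, SE, adjusted p = 8.44e-11). Fos, the defining AP-1 subunit, read 8.13, 8.17 and 8.30 against 13.37, 13.62 and 13.75 (log2 difference 5.38 ± 0.28, SE, adjusted p = 7.93e-09, 41.7-fold). Egr3 read 6.61, 6.85 and 6.77 against 11.82, 11.93 and 11.95 (5.15 ± 0.24). In all 3 the gap between the groups was far wider than the range within either. Nr4a1, an orphan nuclear receptor, had the smallest adjusted p of all tested probes, with 12.50, 12.24 and 12.42 against 16.60, 16.96 and 16.92 (log2 difference 4.44 ± 0.10, SE, adjusted p = 9.99e-13). Egr1, the founding member of its family, went from 12.66, 12.85 and 12.60 to 15.23, 15.45 and 15.53 (2.70 ± 0.09). Fosb, another AP-1 subunit, read 5.46, 5.52 and 5.31 and then 7.93, 8.43 and 8.73 (2.93 ± 0.35). In neither gene did the groups overlap. The probe positions are those of the array annotation in build mm7, chr6:85540804-85540863 for Egr4, chr12:83478431-83478490 for Fos and chr15:101260484-101260543 for Nr4a1, and gene models of that build were not used here.

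Further AP-1 subunits rose less, Junb by 2.14, Fosl2 by 2.09, Fosl1 by 1.82, Jun by 1.70 and Jund by 1.36. Cebpb, a leucine zipper factor, rose by 3.15, Atf3 by 3.22, Ier2 by 2.99, Klf4 by 2.25 and Myc, which drives growth genes, by 1.34. Ier5, Klf6 and Cebpd did not pass, with differences of -0.03, -0.10 and 0.29. Klf2 did not pass on its brighter probe, where vehicle 2 was low, with 16.18, 13.27 and 16.01 against 16.16, 16.64 and 16.21, but its other probe did (2.06 ± 0.11, adjusted p = 1.06e-08). On the 1 slide that held an array of each group, the median over the list was 2.21, and both of those arrays, vehicle 1 and E2 array 2, are also in the fit.

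**Figure D3:**
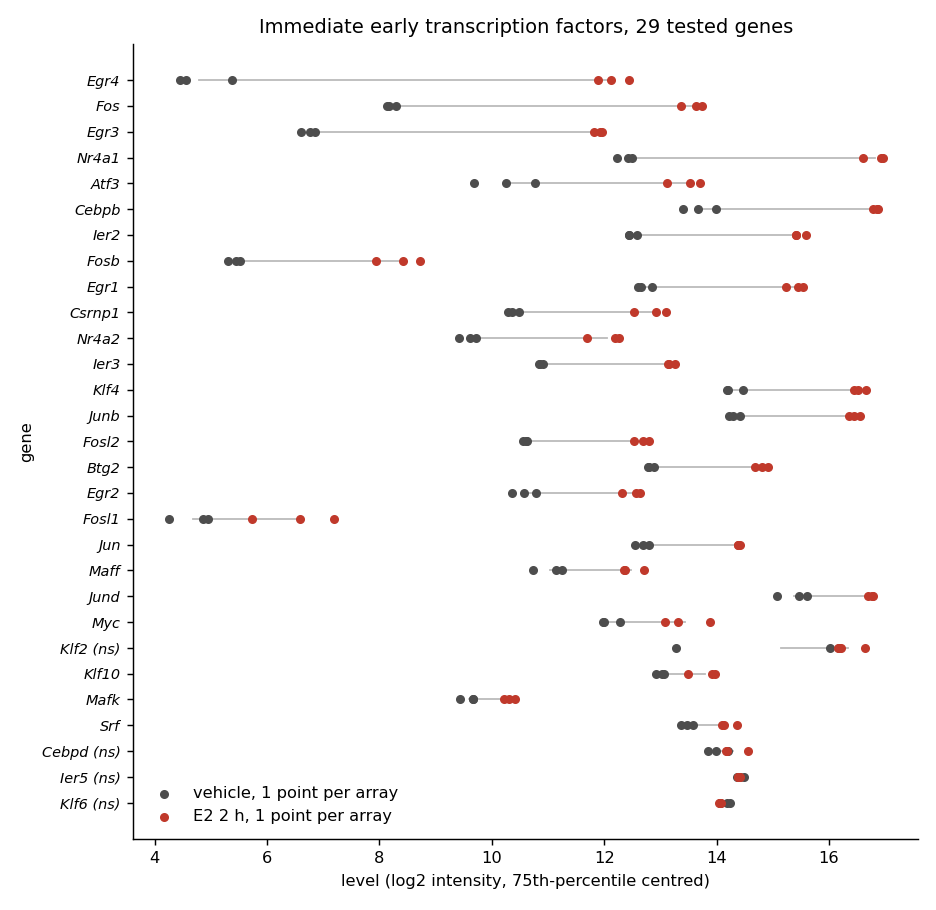
Levels (log2 intensity) of the 29 tested immediate early genes, with 1 point per array for the 3 vehicle and 3 E2 2 h arrays and a line between the group means, ordered by difference. The E2 points lie to the right of all vehicle points for the 25 called genes, from Egr4 (7.36) to Srf (0.72), and ns marks the 4 that were not called.

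Promoter sequence was read for these and the other increased genes from RefSeq's GRCm38.p6 table. The table matched 119 of the 186 symbols that were called at least 4-fold higher. In the 250 bases before the start site, both strands searched, the full cAMP response element TGACGTCA, bound by CREB and ATF factors, was found in 6 of the 119 (5.04%), against 2.69% of the 12765 tested genes with a promoter and 1.77% of all 27025 promoters of the same length. The full palindromic estrogen response element was found in 0 of the 119 and in 0.0392% of tested genes. The GC box GGGCGG, which Sp1 family factors bind, was found in 62.2% against 57.6%. Shares for the AP-1 site were 8.40% against 6.21%, and for the CArG box, another motif searched, 0% against 1.48%. No test was made of these shares, and a match is a description of letters, not of a bound site. The windows of 6 genes with large increases are shown because they hold these letters or their core near the start, each the 150 bases before the start site, 5′ to 3′ on the gene's own strand. Capitals mark TGACGTCA in Has1, Plk2, Errfi1 and Dusp1 and its shorter core TGACG, on either strand, in Fos and Nr4a1. The windows of Fos and Nr4a1 do not hold the full element. How often the core occurs in other promoters was not counted, so its presence in these genes cannot be weighed.
Fos, chr12:85473740-85473889, plus strand: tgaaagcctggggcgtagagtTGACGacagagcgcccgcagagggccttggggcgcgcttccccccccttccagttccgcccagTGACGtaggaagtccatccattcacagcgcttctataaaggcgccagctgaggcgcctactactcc
Nr4a1, chr15:101266696-101266845, plus strand: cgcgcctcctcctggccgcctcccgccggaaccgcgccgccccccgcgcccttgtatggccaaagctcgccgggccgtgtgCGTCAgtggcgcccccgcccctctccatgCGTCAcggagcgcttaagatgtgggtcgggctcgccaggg
Has1, chr17:17855189-17855338, minus strand: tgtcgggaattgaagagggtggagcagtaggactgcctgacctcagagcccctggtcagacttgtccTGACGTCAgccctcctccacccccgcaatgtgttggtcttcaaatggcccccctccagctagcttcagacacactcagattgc
Plk2, chr13:110394894-110395043, plus strand: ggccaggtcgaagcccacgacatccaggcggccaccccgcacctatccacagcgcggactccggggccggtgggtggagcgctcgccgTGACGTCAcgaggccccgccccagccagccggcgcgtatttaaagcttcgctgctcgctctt
Errfi1, chr4:150854920-150855069, plus strand: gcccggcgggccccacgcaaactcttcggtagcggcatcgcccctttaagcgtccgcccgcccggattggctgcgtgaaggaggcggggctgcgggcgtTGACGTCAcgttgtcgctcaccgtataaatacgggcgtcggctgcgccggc
Dusp1, chr17:26508473-26508622, minus strand: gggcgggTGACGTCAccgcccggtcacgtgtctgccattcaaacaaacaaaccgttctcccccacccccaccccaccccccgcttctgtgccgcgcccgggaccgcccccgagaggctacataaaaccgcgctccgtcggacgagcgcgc

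Counted from the start site, the core began at -129 and -66 in Fos and at -69 and -40 in Nr4a1, and the full element at -83 in Has1, -62 in Plk2, -51 in Errfi1 and -143 in Dusp1. Plk2, a polo-like kinase, rose by 4.03. The other 2 of the 6 genes with the full element were Ppp1r15a, a phosphatase subunit of the stress response, and Dusp8.

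Feedback inhibitors of kinase and cytokine signals were mostly higher too, and what induced them was not tested. The list holds phosphatases of MAP kinases, suppressors of cytokine signalling and Sprouty proteins. Of 26 tested members 16 were called higher (61.5% against 11.0% of all genes) and 2 lower (7.69% against 18.9%), with a median of 0.82. Errfi1, which binds and blocks the EGF receptor, read 12.28, 12.55 and 12.45 against 15.91, 16.25 and 16.24 (log2 difference 3.71 ± 0.22, SE, adjusted p = 4.03e-08, 13.1-fold). Socs1 and Socs3, which shut off JAK kinases, rose by 3.27 ± 0.40 and 2.90 ± 0.29, the latter from 13.26, 12.93 and 13.03 to 15.81, 16.01 and 16.10. Dusp1, a nuclear MAP kinase phosphatase, read 10.59, 10.50 and 10.62 against 13.18, 13.14 and 13.27 (2.62 ± 0.12), with no more than 0.13 between the arrays of a group. Spry4 rose by 2.67, Dusp8 by 2.24 and Zfp36, which destabilizes messenger RNA, by 1.68. 1 vehicle value of Dusp8 was missing. Against this direction, Rgs2, which quenches G protein signals, fell from 16.43, 16.29 and 16.40 to 15.11, 14.59 and 14.43 (log2 difference -1.66 ± 0.28, SE, adjusted p = 4.09e-04), and Dusp10 fell by 0.80. Spry1 and Tnfaip3 read -0.73 and -0.77 without passing.

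Of 35 tested growth factors and cytokines, 10 were called higher (28.6% against 11.0% of all genes) and 4 lower (11.4% against 18.9%), with a median of 0.24. Gdf15, a stress-induced TGF-β family member, read 8.05, 8.21 and 8.57 against 12.80, 13.20 and 13.66 (log2 difference 4.94 ± 0.42, SE, adjusted p = 1.15e-06, 30.8-fold). Inhbb, the βB subunit of activin and inhibin, read 12.64, 12.44 and 12.20 against 16.62, 16.61 and 16.77 on its brighter probe (4.24 ± 0.28), and its other probe gave 4.57 ± 0.39. Ccn1, a matrix-bound signal, rose from 10.07, 10.42 and 10.74 to 14.62, 14.66 and 14.88 (4.31 ± 0.20). The groups of all 3 were without overlap and differed by at least 8-fold. Pgf, placental growth factor, rose by 4.13 ± 0.64, Vegfa, which makes vessels leak and grow, by 2.34 ± 0.19, and the EGF receptor ligand Hbegf by 2.02 ± 0.14. Igf1, the growth factor that relays estrogen signals from stroma to epithelium, read 11.78, 11.98 and 11.78 against 13.21, 13.09 and 12.98 on its brightest probe (1.25 ± 0.18) and rose by 1.39 and 3.02 on the other 2. Bmp4, Igf2, Cxcl12 and Ccn4 fell by 0.39 to 0.93, and Bmp2 (-0.99) and Ereg (1.80) did not pass. Areg, Il6 and Cxcl2 were not well above background throughout either group and were not tested, and Lif has no probe under that symbol.

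The estrogen receptor gene Esr1 read 14.61, 14.39 and 14.12 on the vehicle arrays and 14.35, 13.78 and 14.06 on the E2 arrays and did not pass (log2 difference -0.31 ± 0.19, SE, adjusted p = 0.264), and its groups overlapped. Pgr, the progesterone receptor, read 8.73, 8.93 and 8.80 against 10.55, 10.61 and 10.72 on the brighter of its probes (log2 difference 1.81 ± 0.09, SE, adjusted p = 4.88e-09) and gave 4.10 ± 0.14 on the other. Greb1, an ESR1 cofactor, read 9.66, 9.55 and 9.44 against 11.81, 12.02 and 12.25 (2.48 ± 0.17), and Nrip1, a corepressor, rose by 2.17 ± 0.26. Cited2, a CBP/p300 cofactor, fell on all 4 of its probes, by 1.65 to 1.81. Over the whole list of 20 receptors and coregulators 4 were higher (20% against 11.0% of all genes) and 4 lower (20% against 18.9%).

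Of 36 Wnt genes 4 were higher (11.1%) and 6 lower (16.7%), near the 11.0% and 18.9% of all genes. Wnt4, a ligand of uterine development and implantation, read 10.91, 10.94 and 11.16 against 13.34, 13.46 and 13.71 (log2 difference 2.50 ± 0.18, SE, adjusted p = 2.57e-07, 5.64-fold). Axin2, a standard readout of β-catenin signalling, rose by 1.24 ± 0.15, whereas the receptors Fzd1 and Fzd7 fell by 1.46 and 1.13, Fzd7 not passing without vehicle 1, E2 array 2 or E2 array 3. Ppp2r2c, a phosphatase subunit that the study followed as a known early E2 response, rose from 9.13, 9.59 and 9.03 to 11.21, 10.99 and 11.29 (1.91 ± 0.27). Among Hedgehog, Notch and BMP genes 8 of 30 were higher and 8 lower (26.7% each). Ihh, the epithelial signal to the stroma, rose by 2.44 ± 0.37, the BMP target Id1 by 1.64 and the Notch targets Hey1 by 1.57 and Hes1 by 1.42, while Hey2, Bmp4, Notch2 and Notch3 fell by 0.30 to 1.02. Of 29 regulators of uterine development, 4 rose (13.8%) and 6 fell (20.7%), near those shares too. Sox9 rose by 1.62, and Sox4 fell from 13.40, 13.46 and 13.21 to 11.55, 11.65 and 11.53 (-1.78 ± 0.29), with Sox11 (-1.64) and Hoxa9 (-1.51). Without vehicle 1 and E2 array 2 the lower counts were 2 for Wnt genes and 4 for BMP, Notch and Hedgehog genes, and the higher counts 5 and 8.

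Genes of water movement and vessel tone were among the larger increases. Of 31 tested, 11 were called higher (35.5% against 11.0%) and 1 lower (3.23% against 18.9%), with a median of 0.03. Aqp8, a water channel, read 8.87, 8.22 and 7.89 against 12.39, 12.70 and 12.54 (log2 difference 4.22 ± 0.31, SE, adjusted p = 3.03e-07, 18.6-fold), and Aqp5, a water channel of secretory epithelia, read 10.64, 11.07 and 10.82 against 13.93, 14.06 and 14.36 (3.27 ± 0.30). Ramp3, which makes the calcitonin-like receptor respond to adrenomedullin, rose from 11.93, 12.03 and 12.03 to 15.53, 15.67 and 15.88 (3.70 ± 0.18), and its ligand gene Adm rose by 2.44 ± 0.29. The receptor gene Calcrl itself read -0.09 and did not pass. Ptges, a prostaglandin E synthase, rose by 2.68 and the hypoxia factor Epas1 by 2.11, the latter on 1 of its 2 probes. Aqp1, Aqp3, Kdr, Pecam1 and Cdh5 all lay within 0.18 of the vehicle mean and did not pass.

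Of 38 matrix genes 6 were higher (15.8% against 11.0%) and 3 lower (7.89% against 18.9%), with a median of -0.01, and the larger changes were of enzymes. Has1, a hyaluronan synthase, read 5.77, 6.05 and 5.73 against 10.24, 10.57 and 10.55 (log2 difference 4.60 ± 0.36, SE, adjusted p = 4.83e-07, 24.2-fold), while Has2, which makes the same polymer, fell on both of its probes, from 10.12, 10.51 and 10.28 to 9.01, 9.14 and 8.61 on the brighter one (-1.38 ± 0.36). Has3 fell by 0.49. The proteoglycan-cleaving proteases Adamts4 and Adamts1 rose by 4.16 ± 0.50 and 2.20 ± 0.17. Collagens Col1a1, Col1a2, Col3a1 and Col4a1 differed by at most 0.05 and did not pass, while Col6a2 and Col6a3 rose by 0.77 and 0.41.

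Genes of ribosome assembly changed by small steps. Of 37 genes of ribosome biogenesis 26 were higher and 0 lower, 70.3% against 11.0% of all genes, with a median of only 0.38. Rrs1 (1.16 ± 0.12), Gnl3 (1.06 ± 0.10) and Tsr1 (0.99 ± 0.10) led, and Npm1 (-0.06) and Dkc1 (0.06) were among the 11 that did not pass. The count was 17 without vehicle 1 and E2 array 2 and 4 at the lowest among the alternatives. Of 23 heat shock and endoplasmic reticulum chaperones 10 were higher, beside 11.0% of all genes, and this fell to 2 at the lowest. Hsph1 (1.25 ± 0.09) and Dnajb1 (0.95 ± 0.08) led. The amino acid transporter Slc7a5 (1.89 ± 0.21) and Atf4 (1.34 ± 0.15), the factor of the amino acid response, rose. Of 25 genes of that response 7 were higher and 1 lower, beside 11.0% and 18.9% of all genes. Without vehicle 1 and E2 array 2 these counts were 4 and 2. Of 20 aminoacyl-tRNA synthetases 2 were higher, near the share of all genes, or 0 without those arrays.

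Of the cell cycle genes 2 of 26 and 2 of 25 were called, beside 29.9% of all genes. Of 26 genes of G1 and S phase only Pcna was higher (0.34) and only Mcm7 lower (-0.22), and of 25 G2 and M genes only Cdc25b was lower (-0.50) and only Mad2l1 higher. Mcm7 did not pass without any 1 of the arrays but E2 array 3, nor Cdc25b without both vehicle 1 and E2 array 2. Mad2l1, a spindle checkpoint gene, had by far the larger change, with 9.12, 9.26 and 9.03 against 12.31, 12.28 and 12.60 (log2 difference 3.27 ± 0.25, SE, adjusted p = 4.13e-07, 9.62-fold), and its other probe gave 3.28. Of 19 inhibitors of the cycle 8 were higher and 4 lower, or 9 and 1 without vehicle 1 and E2 array 2. Over all genes 11.0% were higher and 18.9% lower, so the 4 lower lie near that share. Gadd45g, a growth arrest and stress gene, read 13.79, 13.85 and 13.71 against 18.54, 18.67 and 18.40 (log2 difference 4.76 ± 0.34, SE, adjusted p = 2.15e-07). Cdkn1a, the p21 inhibitor of cyclin-dependent kinases, rose from 8.88, 8.92 and 8.99 to 11.11, 11.31 and 11.77 (2.47 ± 0.32), and Btg2, Tob1 and Gadd45a rose by 1.98, 2.00 and 1.51. Cdkn2c, Cdkn2d, Btg1 and Ccng2 fell by 0.53 to 0.63.

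Targets of FoxO factors, which quiescent cells express, were lower in 7 and higher in 2 of 23, 30.4% lower against 18.9% of all genes, and without vehicle 1 and E2 array 2 in 3 and 2. Bmf (-1.30), Sesn1 (-0.93), Pik3ip1 (-0.90) and Foxo3 (-0.81) fell and Pdk4 rose (1.78), with Bmf, Sesn1 and Pik3ip1 among the calls lost. Glucocorticoid and stress response genes rose in 10 of 17, beside 11.0% of all genes. The count was 7 without vehicle 1 and E2 array 2 and 6 at the lowest among the alternatives. Sgk1, a kinase that controls sodium channels, went from 11.61, 11.77 and 11.77 to 13.73, 13.99 and 14.08 (2.22 ± 0.15), and Fkbp5 and Mt2 rose by 1.20 and 1.09. Tsc22d3, another target of that receptor, read 0.16 and did not pass. Of 19 clock genes 5 were higher (26.3% against 11.0% of all genes) and 1 lower (5.26% against 18.9%), Nfil3 (2.31), Bhlhe40 (1.72), Per1 (0.72) and Per2 (0.70) among the higher and Nr1d1 (-0.74) lower, and the time of day of collection is not given in the sources used here. Interferon response genes were lower in 6 of 26 (23.1%, near the background), or in 3 without those arrays, with Cxcl10 at -1.56 and Ifit3 at -0.99. Ifit3 and Nr1d1 did not pass without vehicle 1 or 3 or E2 array 2 or 3, nor Per1 and Cxcl10 without vehicle 2.

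**Figure D4:**
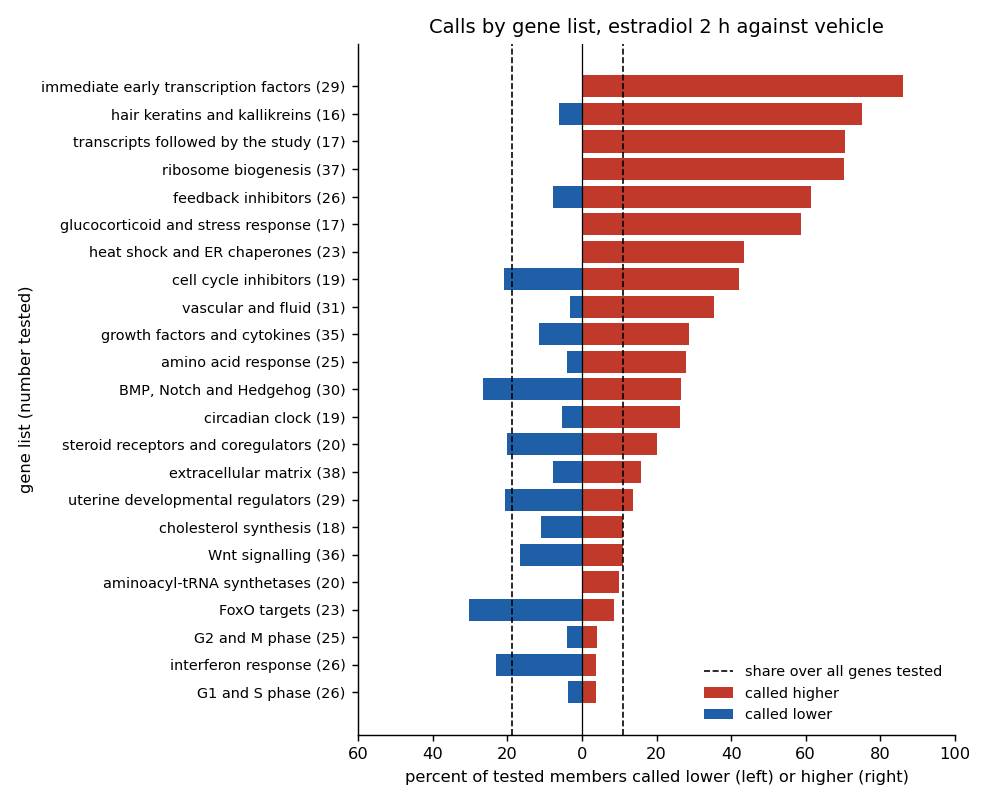
Share of the tested members of each gene list that were called higher (right, red) or lower (left, blue), with the number tested in brackets and dashed lines at the shares over all genes tested, 11.0% higher and 18.9% lower. Immediate early factors, hair keratins and kallikreins, and ribosome biogenesis stand far past the right line, and the G1, S, G2 and M lists lie inside both.

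Among the named increases the largest were of hair keratins. Krt85 was well above background on none of the 3 vehicle arrays and read 13.12, 13.48 and 13.95 on the E2 arrays, at least 855-fold higher (adjusted p = 5.53e-08). Krt87 read 4.98, 4.73 and 4.92 against 12.69, 12.92 and 13.24 (log2 difference 8.08 ± 0.28, SE, adjusted p = 9.27e-11, 270-fold), and Krt86 read 4.44, 5.12 and 5.65 against 12.65, 12.75 and 13.28 (7.83 ± 0.37). All 3 are type II hard keratins of hair and nail, their probes lie together on chromosome 15, and probes to such near-identical sequences may share signal, which was not tested. Krt35, Krt36 and Krt84 on the same list did not pass. Krt4, a keratin of squamous epithelium, read 3.06, 3.94 and 4.23 against 6.65, 7.07 and 7.18 (3.22 ± 0.49), with only 1 vehicle array well above background. Of 11 tested bladder and squamous markers 1, Krt4, was higher and 1, Krt10 (-0.39), lower, beside 11.0% and 18.9% of all genes. Krt5 (-0.83), Krt14 (-0.64), Trp63 (-0.51) and Krt13 (0.03) were among those that did not pass.

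Of the tissue kallikreins, serine proteases encoded by a dense cluster of near copies on chromosome 7, 9 of 10 tested were called higher and Klk1b9 lower. Over all genes 11.0% were higher and 18.9% lower. Klk1 read 5.83, 5.36 and 5.44 on the vehicle arrays and 9.30, 16.45 and 11.18 on the E2 arrays, and Klk1b5 read 8.49, 7.50 and 7.71 and 11.99, 17.91 and 13.62. E2 array 2 was highest in both, as it was for the pancreas list, and array 1 lowest. Array 1, on which the pancreas list was at the vehicle level, was above all vehicle arrays in both genes. The mean levels of Klk1 and Klk1b5 at 2 h of BPA were 12.4 and 14.6, where the pancreas list was at most 4.83. Whether pancreas RNA had a part in the kallikrein levels was not tested. Klk1b24 differed less between the E2 arrays, though vehicle 1 stood above the other vehicle arrays, with 7.91, 6.59 and 6.54 against 10.20, 11.01 and 11.20 (3.79 ± 0.37). Of the list's 16 probes 4 were even ones, with 1 called higher, and 12 stayed higher without vehicle 1 and E2 array 2.

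Among the other named increases, Arc, an activity-induced cytoskeletal gene, read 9.52, 8.46 and 8.40 against 13.25, 13.86 and 14.17 (4.97 ± 0.26). Synpo, an actin-binding protein, and Drp2, a dystrophin relative, were well above background on none of the vehicle arrays and were at least 11.8-fold and 4.47-fold higher. Of 17 transcripts that the study had chosen to follow, 12 were higher and 0 lower, beside 11.0% and 18.9% of all genes. Most of the 17 were known from earlier work as E2 responses, so this is not independent evidence of their direction. Axin1, Per1, Gna12, Mvp and Tnxb were instead followed as apparent responses to BPA and HPTE not seen with E2. Stat5a, a cytokine-activated transcription factor, rose by 1.51 ± 0.18. Sox8 (0.35), Axin1 (0.22), Gna12 (-0.14), Mvp (-0.06) and Tnxb (-0.06) did not pass. By PCR of other samples the study found Axin1, Per1 and Gna12 raised by E2 as well as by BPA and HPTE. In that PCR Mvp rose with BPA only and Tnxb with none of them, and Sox8 was not raised in wild-type uteri.

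Decreases free of the vehicle 1 step were looked for separately. Of called probes with E2 below all vehicle arrays, a range of at most 1 in each group and vehicle 1 within 0.3 of the other vehicle arrays, the 20 largest, 1 a gene, were named, a rule set after the values were seen. Dnm3os, the long RNA that carries the microRNA pair of the Dnm3 locus, read 8.45, 8.50 and 8.10 against 5.99, 5.06 and 4.99 (adjusted p = 1.26e-04), and its brighter probe gave -3.03 ± 0.47. Has2, Rgs2 and Rgs4 fell on both of their probes, with differences of -2.07 and -2.42 for Rgs4. Flrt3, a cell adhesion protein, had means of 11.41 and 9.11 (-2.30 ± 0.33) and fell by 2.09 on its other probe. Ptgfr, the prostaglandin F receptor, read 10.61, 10.65 and 10.65 against 9.08, 8.78 and 8.33 (-1.91 ± 0.47), and Kcnj8, a potassium channel subunit of smooth muscle, and Gucy1a1, a subunit of the nitric oxide receptor, fell on each of their probes. That the E2 arrays lay below vehicle arrays close together in these genes was set by the rule and is not a result.

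Probes of 1 gene could differ in size. Hgf, hepatocyte growth factor, fell by 2.76 on its brightest probe, from 11.32, 11.04 and 11.03 to 8.69, 8.34 and 8.09, and by 1.65 on another, while 2 dimmer probes read -0.19 and -0.16 and did not pass. Nr2f2, a nuclear receptor of the uterine stroma, fell by 2.61, 1.18 and 0.88 on its 3 probes. Lama4, Sesn3, Xpo7 and Gnb4 fell by 1.85 to 1.99 on the named probe and by at most 0.51 on each of the others, and Lgi1 passed on 1 of its 3. Over the 7198 gene symbols with more than 1 tested probe, 457 were higher on all of them, 471 lower on all, 2189 called on some in 1 direction and 89 called in both directions.

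**Figure D5:**
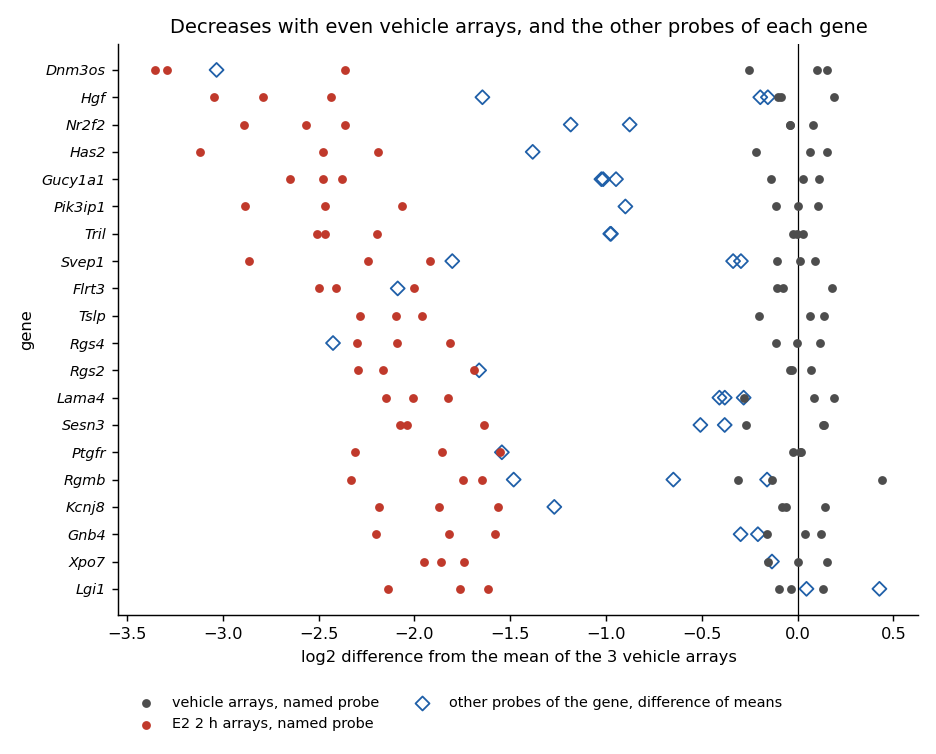
Levels of the 20 named decreases relative to the mean of the 3 vehicle arrays (log2), 1 point per array for the named probe, with open diamonds for the difference of means on other probes of the same gene. All E2 points lie below -1 and all vehicle points within 0.5 of 0, on probes chosen for E2 below vehicle and a small range. The diamonds lie near the E2 points for Dnm3os, Flrt3 and Rgs4 and near 0 for Xpo7 and Lgi1.

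BPA and HPTE at 2 h offered a comparison at the same time after injection. Its differences do not use the vehicle levels, though the vehicle arrays enter the choice of tested probes and the spread of the fit. The doses were 750000 ng each against 250 ng of E2, so that compound and dose cannot be told apart. Over all probes tested, 6220 (19.9%) differed between E2 and BPA and 5403 (17.3%) between E2 and HPTE. Of 49 probes of the named increases, the study's transcripts and the 20 decreases, which were chosen in part on the same E2 arrays, 12 (24.5%) differed from BPA and 14 (28.6%) from HPTE. With only the arrays of the pair in the fit, 472 and 3536 probes differed, 0 and 23 of the named ones among them, and with scaling to spike-in probes 667 and 801, with 1 and 4 of the named. The differences named next are those of the fit over all 20 arrays.

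Fos was higher after E2 than after BPA by 1.10 (95% interval 0.51 to 1.70, adjusted p = 0.0134), and Errfi1 by 0.89 (95% interval 0.41 to 1.37, adjusted p = 0.0132). Ppp2r2c was lower after E2 than after BPA by 1.28 (95% interval -1.85 to -0.71, adjusted p = 0.00456), its difference from HPTE being -1.75 (95% interval -2.32 to -1.18, adjusted p = 6.09e-04). Against HPTE, E2 gave less Cdkn1a, by 1.11 (95% interval -1.78 to -0.43, adjusted p = 0.0255), and less Wnt4, the difference being -0.75 (95% interval -1.14 to -0.37, adjusted p = 0.0102). By PCR of other wild-type uteri, of mixed strain, the study reported the reverse for Ppp2r2c with both compounds and for Wnt4 with HPTE. It found Cdkn1a raised as effectively by HPTE as by E2. For Errfi1 its PCR went the same way as here, and for Fos in that experiment but not in another. Among decreases, Rgs2 stayed higher after E2 than after HPTE by 2.50 (95% interval 1.56 to 3.44, adjusted p = 0.00154) and Ptgfr by 2.09 (95% interval 1.08 to 3.09, adjusted p = 0.00718), with a mean Ptgfr level of 8.73 after E2, 7.18 after BPA and 6.64 after HPTE. Nr4a1 did not differ past the threshold from either, by 0.21 (95% interval -0.00 to 0.43, adjusted p = 0.155) and 0.14 (95% interval -0.07 to 0.36, adjusted p = 0.377). Krt85, Krt86, Has1, Inhbb, Ccn1 and Mad2l1 did not pass in either contrast, with Has1 at -0.01 (95% interval -0.76 to 0.75, adjusted p = 0.994) against BPA. Krt87 was higher after E2 than after BPA by 0.82 (95% interval 0.23 to 1.41, adjusted p = 0.0484) and did not pass against HPTE. Of the study's candidates for BPA and HPTE, Axin1 differed from BPA by -0.41 (95% interval -0.64 to -0.17, adjusted p = 0.0195). Mvp differed from BPA by -0.38 (95% interval -0.66 to -0.11, adjusted p = 0.0496). Neither passed against HPTE, and Per1, Gna12 and Tnxb passed in neither contrast. For 18 of the 37 probes that did not differ from BPA, and 18 of the 35 for HPTE, the 95% interval lay within 1 log2 unit on both sides.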

How the data were processed

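Total RNA of 20 uteri had been labelled with 1 dye and hybridized by the authors to Agilent mouse 4x44K arrays, 500 ng of RNA each. Per the file headers the deposited values are spot intensities that Feature Extraction 9.5.3.1 had background-corrected (the processed signal), not scaled between arrays, and the deposited series table holds the same intensities. Here 45018 spots, 1639 of them controls, gave 41174 probes. The log2 intensity was averaged over spots that were not outliers and each array was centred on its 75th percentile, which ran from 1320 to 2046. The methods of the study used an unadjusted threshold, tried here as an alternative.

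Probes well above background on every array of 1 of the groups entered limma 3.58.1 (R 4.3.3), with 7 group means over 20 arrays and Benjamini-Hochberg adjustment over all probes tested. On the 6 arrays 23 values were missing and 0 tested probes were saturated. The number of arrays limits precision. The labels state separate animals. An exact permutation test of 3 against 3 cannot go below p = 0.1 and was not used. For a gene with several probes, the one with the highest mean level stood for it in the lists. Symbols came from the array annotation, updated through RefSeq by accession (22944 probes), symbol (6664) or synonym (3108), with the file's name kept for 8458.

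Named genes were the 17 transcripts followed by the study, the 12 largest called increases and decreases without overlap and with a range of at most 2 in each group, outside the marker lists of other tissues, 4 bounds in each direction where the lower group was nowhere well above background, and up to 5 called members of each list, with others where the description needed them. The lists, the named genes and the 20 even decreases were chosen with earlier results of these data known. A bound sets the bright group against the lowest signal among probes above background on the dim arrays. Scaling, background correction, filters, slide and replicate blocks, thresholds and each array in turn were varied. Calculations were tested on simulated data. Python 3.11.15, pandas 2.3.3, numpy 2.4.6 and matplotlib 3.10.9 were used. Some named or listed genes are not reported here.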

Additional observations from a re-analysis of the deposited data

How the results depend on the processing

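Of 31259 probes tested 9103 were called as reported. Without scaling 1277 were higher and 8869 lower. With scaling to 8 spike-in probes 2818 were called, 736 higher and 2082 lower. With vehicle 1 and E2 array 2 left out, chosen after seeing the data, 6045 were called, 3501 of them lower. At an unadjusted p under 0.001 there were 4859, 2019 higher and 2840 lower, and at a fold of at least 2 there were 2577, 786 higher and 1791 lower. Leaving out each E2 or vehicle array in turn gave 7213 to 8479 called probes. The deviations of E2 and vehicle arrays with the same replicate number were barely correlated (r = 0.03, -0.04 and 0.05). For arrays with different numbers r ran from -0.07 to 0.04. On so few arrays a group, low r cannot decide whether the numbers pair the samples, and pairing was not tested otherwise. A replicate block gave 5618 called probes over 6 arrays, 2074 higher and 3544 lower, and 8702 over 20 arrays.

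Against BPA 667 probes differed with spike-in scaling, 472 with only the arrays of the pair and 3104 with slide as a block, and 3517 (without BPA replicate 1) to 8576 (without BPA replicate 3) with 1 array left out. Against HPTE the counts were 11662 without scaling, 801 with spike-in scaling, 3536 with the pair alone and 3083 with the slide block, and 3553 (without E2 replicate 1) to 4721 with 1 array left out. The cause of these shifts was not tested.

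Of 179 named or listed probes the most that lost their call under 1 alternative were 47 at a fold of at least 2 and 45 with spike-in scaling, and 21 lost it without vehicle 1. A change of sign was limited, in these alternatives, to genes not called: Axin1 was at -0.014 without scaling, Mvp at 0.026 with slide as a block and -0.21 to 0.052 with 1 array left out, and Tnxb at -0.16 to 0.088. The array data hold 1 vehicle group, with a 24 h label and high sperm transcripts, so differences against it carry both.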
